A study of Rattus norvegicus with 6 samples.

Results

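The regions described here are the widest DNase-accessible stretches of cultured rat microglia that were detected in every library. They were chosen by width and by presence. A counted region had to span at least 1500 bp and to overlap, by at least 1 bp, a hotspot in all 6 hotspot lists, a hotspot being an interval in which the authors found DNase I cuts to be dense in 1 library. The rule took 2961 of 129499 counted regions (2.29%), or 4.26% of the 69548 regions with a hotspot in every list. The comparison set was compact regions, which are the 35332 regions of 300 to 600 bp that also had a hotspot in every list. Widths, presence and the read levels that set them are therefore given as descriptions, with no test. Because a hotspot was required in every list, regions that a treatment opened from nothing or closed entirely were left out by construction.

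The study measured chromatin accessibility by DNase I sequencing in primary microglia shaken off cultures of cerebral cortex from 1-day-old Wistar rat pups. The 3 groups were cultures left untreated, cultures given 100 ng/mL lipopolysaccharide from Salmonella enteritidis (LPS) for 6 h, and cultures given medium conditioned by C6 rat glioma cells (GCM) for 6 h, with 2 independent cultures per group. All groups shared the serum-containing culture medium, and each culture pooled several pups, so differences between pups were not measured. Counts in counted regions came to 7.14 M to 12.4 M per library, which was 10.0% to 13.7% of their reads.

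DNase I cuts DNA where nucleosomes are displaced or remodelled, so dense cutting marks promoters, enhancers and other regulatory elements. A typical regulatory element is open over the footprint of a few nucleosomes, whereas wide open stretches are known from promoters with CpG islands and from clusters of adjoining elements. LPS is a bacterial ligand of Toll-like receptor 4 that drives inflammatory gene programmes in microglia, and glioma-conditioned medium carries tumour-derived signals that shift microglia toward a tumour-supporting state. The files use rat genome build rn5 and tie no region to a gene, so regions are named by position, and the microglial identity of the cultures was not checked against marker genes. Positions are 1-based rn5 coordinates that include both end bases.

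The wide regions had a median width of 1732 bp, with quartiles at 1588 and 1951 bp, and 2308 of them (77.9%) were under 2000 bp. Only 58 were 3000 bp or wider. Together they covered 5.47 Mb, which was 8.74% of all counted width, and took 9.36% to 10.1% of the counts in each library. The widest was chr20:42595129-42599801 at 4673 bp, followed by chr13:94597032-94601490 at 4459 bp, chr6:128738889-128743287 at 4399 bp, chr1:9752672-9757005 at 4334 bp and chr5:68297742-68301979 at 4238 bp.

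The width limit did not mark a break in the data. The regions just inside it, all of 1500 bp, were chr1:56920917-56922416, chr1:268591611-268593110 and chr10:55205127-55206626, with mean levels of 26.2, 18.9 and 17.2 CPM per kb, which is counts scaled to a common library size (CPM) per kilobase of width. Those just outside it, of 1499 bp, were chr13:108962497-108963995, chr16:74383154-74384652 and chr18:63298201-63299699, with mean levels of 17.0, 16.1 and 21.6 CPM per kb. Presence in every list excluded a single region of sufficient width, chr1:51837770-51839279 of 1510 bp, which had no hotspot in untreated culture 2. Its levels were 11.5 and 10.2 CPM in untreated cultures, 16.9 and 19.6 CPM with LPS and 10.8 and 11.1 CPM with GCM.

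Presence in all 6 lists did not mean that a region was wide in all 6 libraries. The coordinates of all 129499 counted regions were identical to intervals built from the lists by keeping, in each group, what hotspots of both cultures had in common and joining these parts across the 3 groups, so a region could reach its width through 1 group. Of the 2961 wide regions, 362 (12.2%) held an unbroken hotspot of at least 1500 bp in every library. Such a stretch was present in 1987 regions in untreated culture 1 and 788 in untreated culture 2, in 2074 and 2265 with LPS, and in 1959 and 1638 with GCM. Untreated culture 2, which had the fewest counts in regions, also had the smallest total hotspot length, 46.2 Mb against 62.3 to 77.7 Mb in the other libraries. The part that depth played in these counts was not tested.

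Counted by group, from hotspot parts common to a pair of cultures, 338 regions (11.4%) held an unbroken stretch of at least 1500 bp in all 3 groups, 667 in exactly 2 groups, 1406 in exactly 1 group and 550 in none. The 1406 comprised 823 with the stretch in LPS cultures, 432 in GCM cultures and 151 in untreated cultures. The 550 reached their width only when parts from different groups were joined. The name "constitutively broad" thus held for 338 of the 2961 if breadth in each group is asked for. They are called wide regions here, by the rule that chose them.

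In the median wide region hotspots covered most of the width, while single regions ranged down to 12.4% in their least covered list. The median share of a region's width under hotspots was 96.1% and 75.7% in the untreated pair, 96.9% and 98.6% in the LPS pair, and 95.5% and 90.9% in the GCM pair. At least 50% of the width was covered in every list for 2605 regions (88.0%), and 988 regions (33.4%) were touched by exactly 1 hotspot in each list. The share touched by more than 1 hotspot was 39.8% in untreated culture 2, against 13.5% to 28.2% in the other libraries, and 314 regions were broken in that library alone.

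Wide regions were only slightly more accessible per kilobase than compact ones. Levels are CPM over the counts in regions with trimmed-mean (TMM) scaling, divided by width where stated. The median level of the wide regions was 18.2 and 18.0 CPM per kb in the untreated pair, 17.6 and 18.1 in the LPS pair, and 18.7 and 16.9 in the GCM pair. The compact regions stood at 15.7 and 15.8, 15.5 and 15.5, and 15.8 and 16.1 CPM per kb in the same order. The wide set was above the compact set in each of the 6 libraries, by the least in GCM culture 2. Among wide regions the mean level ran from 9.54 to 63.3 CPM per kb, and wider regions were not denser (Spearman's rho of width with CPM per kb -0.14 over 2961 regions, which share libraries and whose width enters both measures).

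Because the counts add up over the width, the wide regions were measured with far more reads. The median count per wide region was 366 and 232 in the untreated pair, 312 and 401 in the LPS pair, and 275 and 370 in the GCM pair, against 48 to 83 for compact regions. Replicate cultures lay closer together at wide than at compact regions in the untreated and LPS groups, but not in the GCM group. The median absolute log2 difference between the 2 cultures of a group was 0.083 in untreated, 0.099 in LPS and 0.17 in GCM cultures for wide regions, against 0.15, 0.17 and 0.16 for compact regions. In the GCM pair the difference ran 1 way: GCM culture 1 was above GCM culture 2 in 81.7% of wide regions, with a median log2 difference of 0.15, whereas for compact regions that share was 47.3%.

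**Figure D1:**
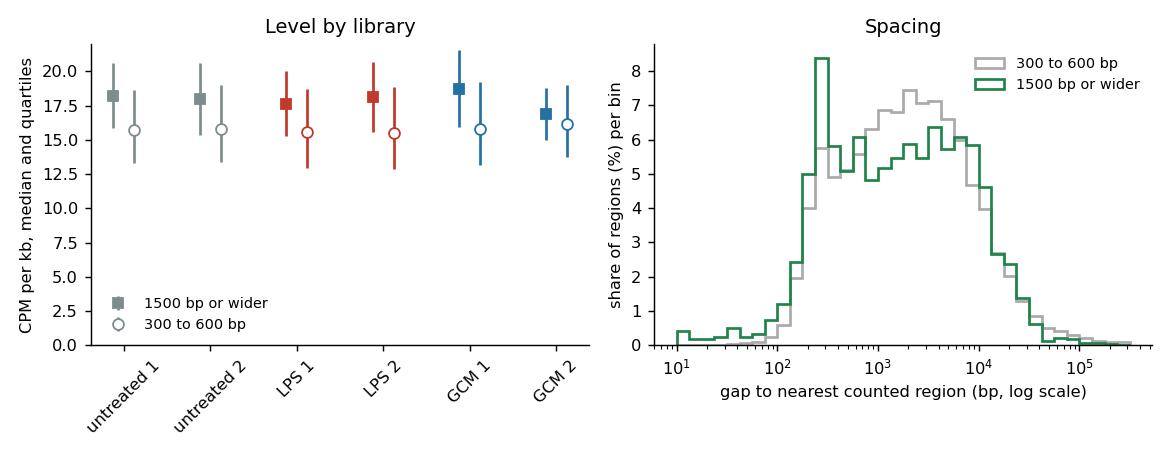
Left, median CPM per kb with quartile bars in each of the 6 libraries, for wide (filled squares) and compact (open circles) regions; right, share of regions in each bin of the gap to the nearest counted region, on a log axis. The wide set lies between 16.9 and 18.7 CPM per kb and the compact set between 15.5 and 16.1, and gaps under 1 kb are more frequent beside wide regions (41.6% against 34.7%).

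Wide regions had a neighbour under 1 kb away more often than compact regions, in otherwise similar spacing. The median gap from a wide region to the nearest counted region was 1606 bp (quartiles 401 and 5396 bp), against 1896 bp (628 and 5197 bp) for compact regions. A neighbour lay under 1 kb away for 41.6% of wide and 34.7% of compact regions, and gaps over 20 kb were found for 3.99% and 5.05%. Within 50 kb a wide region had a median of 10 other counted regions and a compact region 11. The nearest neighbour of a wide region was itself present in all 6 lists in 45.5% of cases, against 54.6% for compact regions, and its median width was 341 bp against 376 bp. Regions do not overlap, so a wide region also takes up room that a compact one leaves to neighbours, and the gaps are given as measured.

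Single wide regions were seldom within 10 kb of another. The mean spacing along the chromosomes was 977 kb (the summed span of counted regions divided by 2961), and the median distance from 1 wide region to the next nearest was 153 kb, with quartiles at 58.9 and 362 kb. The first is a mean and the second a median of the nearer side only, so their difference does not measure clustering. Another wide region lay within 50 kb for 651 of them (22.0%) and within 10 kb for 113 (3.82%), while 224 had none within 1 Mb. The closest pairs were chr5:82199879-82201458 with chr5:82201489-82205223, separated by 30 bp, chr1:281443907-281445507 with chr1:281445670-281448178, and chr10:37085098-37087241 with chr10:37087410-37088914. Both members of the chr5 pair had similar fitted changes, -0.23 and -0.26 on the log2 scale with LPS and -0.39 and -0.36 with GCM, and none of the 4 values was called (adjusted p from 0.13 to 0.29, edgeR's quasi-likelihood test).

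All 20 autosomes and chromosome X carried wide regions. They made up 3.27% (chromosome 12) to 5.40% (chromosome 18) of the regions present in all lists on the autosomes, and 1.78% on chromosome X, where they numbered 18 of 1012. Chromosome 1 held the most, 369.

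LPS changed few of the wide regions, and by small amounts. Tests were edgeR's quasi-likelihood test over the whole table of 126284 tested regions with Benjamini-Hochberg adjustment and n = 2 cultures per group, and a region was called at an adjusted p under 0.05. All 2961 wide regions passed the filter on low counts. LPS cultures differed from untreated cultures at 66 wide regions (2.23%), against 9.85% of all tested regions and 6.71% of compact regions. Of these, 32 were higher (1.08% of wide, 3.86% of compact and 6.71% of all tested regions). The other 34 were lower (1.15%, 2.85% and 3.14% in the same order). The fitted log2 fold changes of wide regions ran from -0.74 to 0.93 with a median absolute value of 0.08, against 0.18 for compact and 0.22 for all tested regions. None of the wide regions reached a 2-fold change, a size passed by 3.1% of all tested regions and by 94 compact regions (0.266%).

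The number of calls moved with the scaling, the tool and each culture left out. The 66 calls became 10 without untreated culture 1, 11 without untreated culture 2, 34 and 24 without LPS culture 1 or 2, and 148 and 153 without GCM culture 1 or 2. The GCM cultures are not in this contrast but are part of the fit, its filter and its scaling. A group left with 1 culture takes its spread from the other groups. With libraries scaled to their whole read totals 3 calls were left, all higher, at chr4:30186738-30188460, chr1:261815559-261817143 and chr3:78523082-78524847. DESeq2 called 10. With the fit restricted to regions present in all lists there were 60 calls, of which 45 were higher and 15 lower. A log2 change of 0.5 or more was fitted for 0.743% of wide and 8.77% of compact regions, and the wide share was the lower of the pair in all 17 fits.

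**Figure D2:**
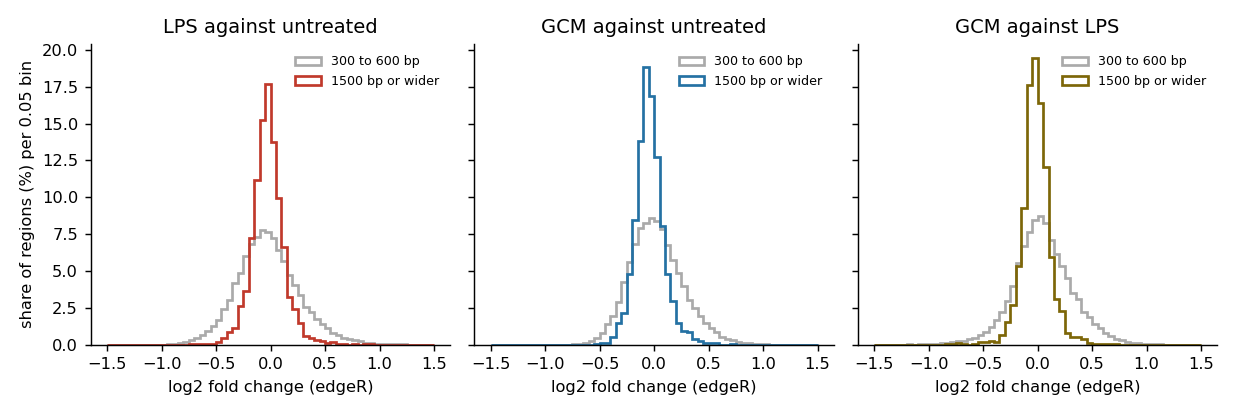
Share of regions per bin of 0.05 of edgeR's log2 fold change, for wide regions (coloured) and compact regions (grey), in the 3 comparisons. The wide regions are gathered more tightly around 0, with median absolute values of 0.08, 0.09 and 0.07, against 0.18, 0.16 and 0.16 for compact regions.

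The region that rose most with LPS, chr4:30186738-30188460 (1723 bp), had 17.0 and 15.7 CPM in untreated cultures, 35.4 and 27.5 CPM with LPS, and 28.0 and 27.0 CPM with GCM. Both treated pairs lay above the untreated pair. Regions named for a comparison had to have libraries that did not overlap in it, so that separation was fixed by the choice, here and below. The log2 fold change was 0.93 ± 0.14 (SE) with LPS (adjusted p 1.47e-05, edgeR) and 0.74 ± 0.14 with GCM (adjusted p 0.0041), and GCM against LPS was -0.19 ± 0.13 (adjusted p 0.42). Hotspots covered 68.4% and 37.0% of it in the untreated pair, 92.5% and 84.8% in the LPS pair, and 100% and 76.0% in the GCM pair.

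At chr1:261815559-261817143 (1585 bp) the levels were 13.0 and 14.9 CPM in untreated cultures, 24.5 and 26.1 CPM with LPS, and 14.3 and 16.3 CPM with GCM. The LPS cultures stood apart from the other 4. The log2 fold change with LPS was 0.88 ± 0.13 (SE, edgeR adjusted p 1.88e-05). At chr3:78523082-78524847 (1766 bp), which had the lowest density of all wide regions at 9.54 CPM per kb, the levels were 13.6 and 13.5 CPM in untreated cultures, 24.0 and 22.6 CPM with LPS and 12.8 and 14.7 CPM with GCM. Again the LPS cultures alone were high, with a log2 fold change of 0.78 ± 0.13 (adjusted p 9.22e-05). Hotspots covered all of this region in both LPS libraries, but 40.7% and 14.8% of it in untreated and 20.4% and 28.4% in GCM libraries.

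At the other 3 named regions that rose, the LPS cultures were again the highest. At chr7:96283632-96286293 (2662 bp) the untreated cultures had 34.0 and 27.9 CPM, the LPS cultures 53.5 and 46.3 CPM and the GCM cultures 41.5 and 35.9 CPM. At chr5:163927953-163929670 the values were 21.0 and 18.9, 30.1 and 33.0, and 22.1 and 17.4 CPM in the same order. At chr6:36190735-36192295 they were 16.6 and 19.3, 27.8 and 27.2, and 20.6 and 19.1 CPM. In all 3 the LPS pair lay above the other 4 cultures, with log2 fold changes of 0.67, 0.65 and 0.63 over untreated (SE 0.13 each, edgeR adjusted p 0.00064, 0.00089 and 0.0011).

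Among regions that fell, chr5:162575573-162577164 (1592 bp) had 37.8 and 40.5 CPM in untreated cultures, 26.1 and 20.8 CPM with LPS and 41.3 and 33.1 CPM with GCM. Both LPS cultures were below the other 4, and the log2 fold change with LPS was -0.74 ± 0.14 (SE, edgeR adjusted p 0.00027). At chr6:135218126-135219645 (1520 bp) the untreated cultures had 32.2 and 34.1 CPM, the LPS cultures 20.2 and 20.7 CPM and the GCM cultures 32.3 and 31.2 CPM. At chr9:45309530-45311085 (1556 bp) the values were 21.7 and 22.1, 14.5 and 13.6, and 24.7 and 21.7 CPM. The LPS pair was the low one at both, with log2 fold changes of -0.69 ± 0.13 and -0.64 ± 0.14 (adjusted p 0.00031 and 0.0014).

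The remaining named regions that fell were chr7:132083188-132084847, chr17:13037691-13039427 and chr19:58944032-58945589. At the first of them the untreated cultures had 26.1 and 24.4 CPM, the LPS cultures 17.2 and 16.6 CPM and the GCM cultures 21.8 and 22.0 CPM. GCM lay between the other groups there. At the chromosome 17 region the LPS cultures had 32.9 and 26.2 CPM, and all other cultures had 40.0 to 43.2 CPM. At the chromosome 19 region the LPS cultures had 20.9 and 20.5 CPM, and no other culture was under 28.8 CPM. The log2 fold changes with LPS were -0.59, -0.55 and -0.52 (SE 0.13 each, edgeR adjusted p 0.002, 0.0043 and 0.0067).

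**Figure D3:**
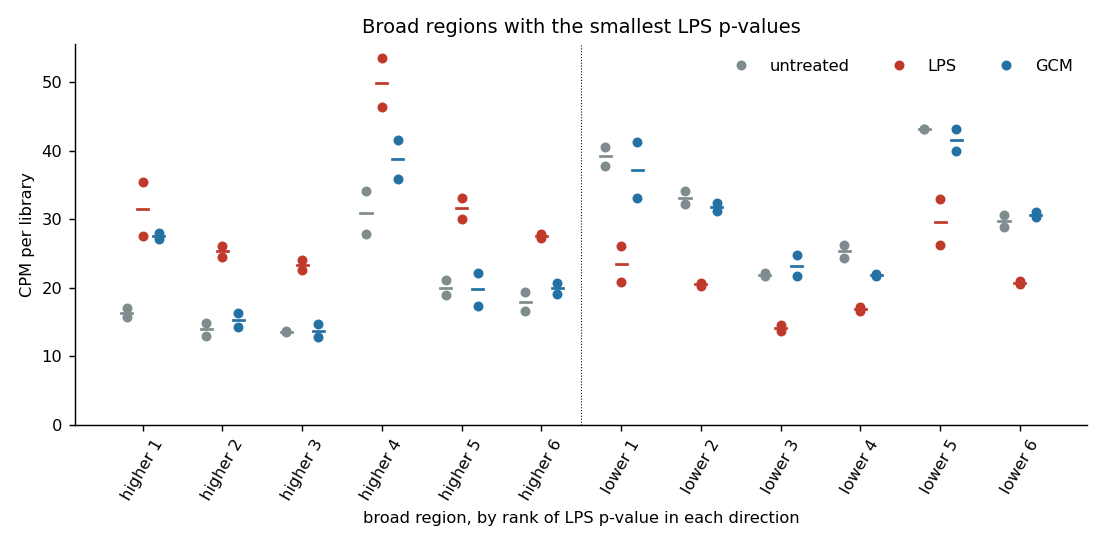
CPM in each library (points) and the mean of the 2 cultures of a group (bars) for the wide regions with the smallest LPS p-values, 6 higher and 6 lower, numbered by rank. The rule that chose these regions required the 2 LPS points to lie outside the untreated pair. At the first of the higher regions the GCM points, 28.0 and 27.0 CPM, lie with LPS.

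The 32 regions that rose with LPS were thinner and less completely covered in the other groups. Their median level was 21.9 CPM in untreated and 31.3 CPM in LPS cultures, and the 34 that fell went from 33.8 to 25.2 CPM. The median covered share of the 32 was 66.5% and 46.8% in untreated libraries, 100% and 100% in LPS libraries, and 80.9% and 76.4% in GCM libraries. In the 34 it was 100% and 92.2% in untreated, 84.8% and 86.0% in LPS, and 95.2% and 97.9% in GCM libraries. An unbroken shared stretch of 1500 bp or more was present in 21 of the 32 in LPS cultures, in 6 in GCM cultures and in 1 in untreated cultures. Hotspots and counts come from the same reads, so the cover repeats the counts and adds no separate evidence. In GCM cultures the median level was 14.2 CPM per kb for the 32, 17.4 for the 34 and 17.8 for wide regions not called. These cultures are outside the LPS contrast, but they are part of the fit and of the rule that chose wide regions.

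Asking that hotspots cover at least 50% of the width in every list removed 356 of the 2961 regions and 25 of the 66 calls. The 41 left were 13 higher and 28 lower, which was 1.57% of 2605 regions, and the 25 removed were 19 higher and 6 lower, which was 7.02% of 356. Cover and counts come from the same reads, so this criterion is not independent of the change. The median cover was also lowest in untreated culture 2, at 75.7%. The part of either in the split of the removed calls was not tested. Within the set, 12 of 653 regions of 2000 bp or wider were called (1.84%), against 54 of 2308 narrower ones (2.34%).

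**Figure D4:**
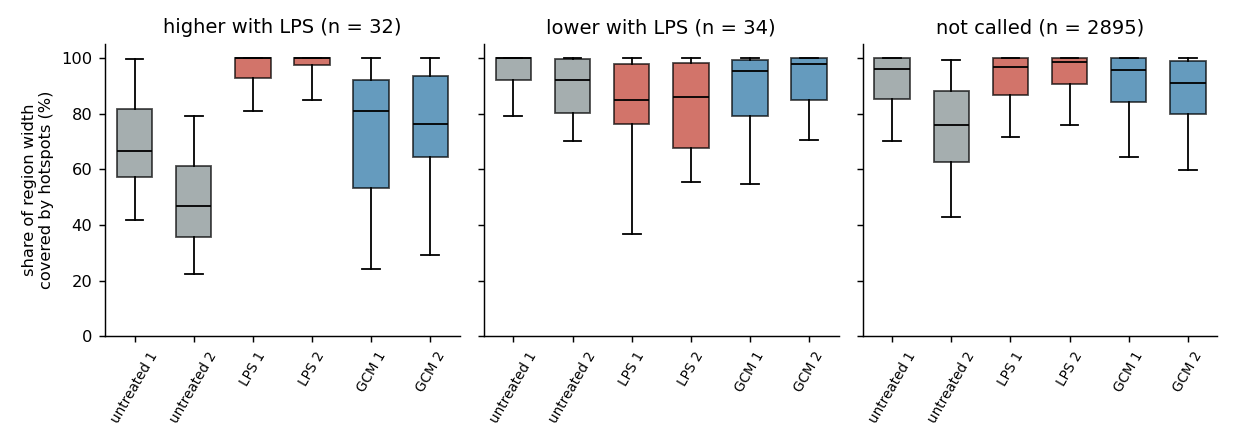
Share of each wide region's width covered by hotspots in each library, as boxes (median and quartiles, whiskers at the 5th and 95th percentiles), for regions higher with LPS (n = 32), lower with LPS (n = 34) and not called (n = 2895). In the regions that were higher, the LPS medians are at 100% and the untreated medians at 66.5% and 46.8%.

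Few wide regions changed with GCM. GCM cultures differed from untreated cultures at 12 wide regions (0.405%), against 1.57% of all tested regions and 1.04% of compact regions. Of these, 9 were higher (0.304% of wide, 0.999% of compact and 1.34% of all tested regions). The other 3 were lower (0.101%, 0.0396% and 0.231% in the same order). The lower share was thus above the compact one, on 3 calls. Changes ran from -0.55 to 0.74 on the log2 scale. None reached 2-fold, a size passed by 1.22% of all tested regions but by only 18 compact regions (0.0509%). An unadjusted p under 0.05 was found for 179 wide regions (6.05%).

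The GCM calls moved with each untreated and GCM culture left out, as did those over all tested regions, where 1985 calls became 12 without untreated culture 1, 87 without untreated culture 2, 1573 without GCM culture 1 and 33 without GCM culture 2. Without untreated culture 1 or untreated culture 2 0 wide regions were called by edgeR (unadjusted p under 0.05 at 82 and 68), without GCM culture 1 there were 29 calls, and without GCM culture 2 there were 2, both lower, at chr9:113495728-113497732 and chr17:13855539-13859418. DESeq2 called 0 wide regions, with an unadjusted p under 0.05 at 81, and scaling to whole read totals also left 0, with 5 such p-values. The median log2 change of the wide regions was -0.05, close to the -0.06 of the 213 compact regions with the highest counts. It was -0.13 without GCM culture 1, 0.04 without GCM culture 2 and 0.02 with whole read totals, so its sign rested on GCM culture 2 and on the scaling.

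Apart from chr4:30186738-30188460, given above, the named regions that rose with GCM were these. At chr17:82267064-82268645 (1582 bp) the levels were 22.1 and 21.3 CPM in untreated cultures, 25.8 and 22.0 CPM with LPS and 32.6 and 31.8 CPM with GCM. At chr4:64554390-64555978 (1589 bp) they were 20.1 and 16.3, 22.0 and 20.1, and 29.0 and 26.0 CPM. At both, the GCM pair lay above all other cultures, with log2 fold changes of 0.56 ± 0.13 and 0.57 ± 0.13 over untreated (SE, edgeR adjusted p 0.018 and 0.021). At chr1:258804139-258806416 (2278 bp) the levels were 22.1 and 26.1 CPM in untreated cultures, 28.7 and 26.0 CPM with LPS and 33.8 and 34.8 CPM with GCM. At chr2:123943131-123944945 (1815 bp) they were 26.1 and 24.7, 27.8 and 25.9, and 38.2 and 34.5 CPM. At chr9:25841288-25843015 (1728 bp) they were 18.6 and 17.8, 22.5 and 21.5, and 26.8 and 25.6 CPM. GCM was again the highest pair at each of these, with log2 fold changes of 0.53, 0.51 and 0.52 over untreated (SE 0.13 each, adjusted p 0.029, 0.032 and 0.032).

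The 3 regions that fell with GCM were chr4:55861597-55863307, chr9:113495728-113497732 and chr4:45353590-45355299. At the first the levels were 28.7 and 28.4 CPM in untreated cultures, 24.1 and 24.1 CPM with LPS and 20.2 and 19.1 CPM with GCM. At the second they were 37.5 and 39.2, 25.9 and 30.8, and 24.0 and 30.1 CPM, and this region was also called lower with LPS (log2 fold change -0.43 ± 0.13, edgeR adjusted p 0.029). At the last they were 31.3 and 29.4, 25.9 and 24.2, and 23.2 and 21.0 CPM. In all 3 both treated pairs lay below the untreated pair, and the log2 fold changes with GCM were -0.55, -0.49 and -0.47 (SE 0.13 each, adjusted p 0.021, 0.046 and 0.048).

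Set directly against each other, GCM and LPS cultures differed at 52 wide regions (1.76%), against 8.58% of all tested regions and 6.23% of compact regions. GCM was higher at 24 (0.811% of wide, 3.98% of compact and 3.75% of all tested regions). It was lower at 28 (0.946%, 2.25% and 4.84% in the same order). None reached 2-fold, against 2.4% of all tested regions and 97 compact regions (0.275%). The number was 13 without LPS culture 2, 30 without either untreated culture, 38 without LPS culture 1, 78 without GCM culture 1 and 49 without GCM culture 2. DESeq2 called 12, and scaling to whole read totals called 0, with an unadjusted p under 0.05 at 13.

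The largest difference was at chr7:119658626-119660145 (1520 bp). Its levels were 20.7 and 19.2 CPM in untreated cultures, 29.1 and 28.8 CPM with LPS and 17.5 and 15.2 CPM with GCM. LPS was above and GCM below the untreated pair, and GCM against LPS was -0.84 ± 0.13 (SE) on the log2 scale (edgeR adjusted p 2.05e-05). The change against untreated was 0.53 ± 0.13 with LPS (adjusted p 0.0047) and -0.31 ± 0.14 with GCM (adjusted p 0.27). At chr7:76150553-76152360 (1808 bp) the levels were 19.1 and 17.7, 28.4 and 26.0, and 14.9 and 16.5 CPM, the same order of groups. At chr14:5327458-5329321 (1864 bp) they were 22.4 and 24.2, 30.7 and 33.1, and 18.4 and 20.3 CPM. GCM against LPS was -0.78 ± 0.13 and -0.71 ± 0.13 there (adjusted p 5.52e-05 and 0.00018).

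In the other direction, chr9:53462019-53463578 (1560 bp) had 26.1 and 24.4 CPM in untreated cultures, 21.1 and 18.6 CPM with LPS and 32.1 and 29.0 CPM with GCM. The region chr10:70516180-70517715 (1536 bp) had 16.8 and 18.2, 12.4 and 16.1, and 22.2 and 21.0 CPM. At both, GCM was the highest group and LPS the lowest. The difference was 0.62 ± 0.13 and 0.58 ± 0.13 on the log2 scale (SE, edgeR adjusted p 0.0012 and 0.0036). Neither region was called in either comparison with untreated cultures.

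The 3 comparisons share libraries, so their values for the same regions are set side by side without a test of their overlap. The 32 regions higher with LPS had a median log2 change of 0.49 with LPS and 0.15 with GCM, and 2 of them, chr4:30186738-30188460 and chr17:23190396-23192174, were called higher with GCM. The 34 regions lower with LPS had medians of -0.43 with LPS and -0.20 with GCM. Of the 2961 wide regions, 2860 (96.6%) were called in none of the 3 comparisons, and in 992 (33.5%) the largest absolute log2 change over the comparisons was under 0.1. For compact regions those shares were 89.2% and 9.53%.

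The least changed region was chr9:16837256-16838911 (1656 bp), with 31.8 and 32.9 CPM in untreated cultures, 34.6 and 30.2 CPM with LPS and 34.4 and 30.6 CPM with GCM. The groups overlapped fully, and the SE of each of its 3 log2 changes was 0.13. In the main fit no wide region was called with an absolute log2 change under 0.38. This is the smallest called change and not a limit of detection, and changes of up to 0.49 with GCM went uncalled. A region without a call may therefore still have changed. The next were chr6:135953469-135955291, chr10:85727541-85729073, chr8:56928305-56930242 and chr14:84833606-84835507, with levels of 29.9 to 35.6, 28.5 to 31.1, 33.6 to 37.5 and 42.6 to 47.9 CPM over the 6 libraries.

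The share of called regions fell with width among regions present in all lists, from 600 bp upward. With LPS it was 6.71% at 300 to 600 bp, 8.56% at over 600 and under 900 bp, 5.54% from 900 bp, 3.65% from 1200 bp and 2.23% from 1500 bp. With GCM the shares were 1.04%, 1.6%, 1.3%, 0.613% and 0.405%, and for GCM against LPS they were 6.23%, 7.20%, 5.09%, 3.17% and 1.76%. The median SE of the LPS log2 change also fell, from 0.18 in compact to 0.13 in wide regions. The GCM replicates lay no closer together at wide than at compact regions (median absolute log2 difference 0.17 against 0.16). The part of precision in the called shares was not tested.

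Width and count per region went together. Only 213 compact regions had a mean count at or above 165, the lowest mean count of any wide region, and they had a median count of 181 against 326 for wide regions. Of these 213, 3.29% were called with LPS and 0.939% for GCM against LPS, with median absolute log2 changes of 0.09 and 0.07. For the wide regions these values were 2.23%, 1.76%, 0.08 and 0.07. None of the 213 was called with GCM by edgeR, and 8 had an unadjusted p under 0.05. These regions were singled out after the values of the wide set were known. Across the wide regions themselves, a higher mean count went with a smaller absolute LPS change (Spearman's rho -0.20 over 2961 regions in the same libraries), and the rho with width was -0.03. The separate parts of width and read level in the smaller changes were not tested. The tool mattered too: with DESeq2, which made few calls, 0.338% of wide and 0.243% of compact regions were called with LPS, the opposite order.

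**Figure D5:**
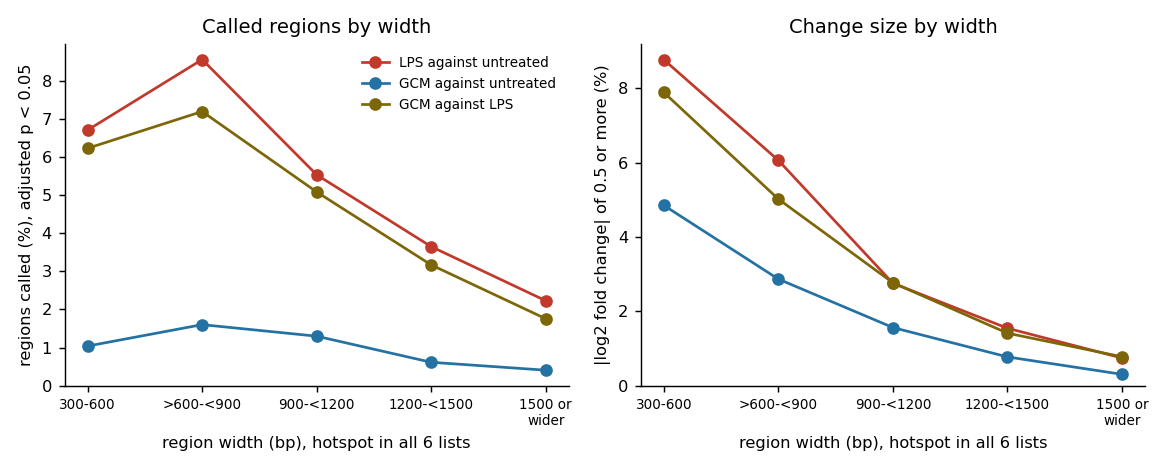
Share of regions called at an adjusted p under 0.05 (left) and share with an absolute log2 fold change of 0.5 or more (right) in 5 width classes of regions present in all lists, for the 3 comparisons. With LPS the called share is 6.71% in the narrowest class, 8.56% in the next and 2.23% in the widest.

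The changes of wide regions were only weakly correlated with those of their nearest neighbours. For 2094 wide regions the nearest counted region lay within 5 kb, and the LPS log2 changes of the pair had a Pearson correlation of 0.11 over those pairs, with 0.19 for GCM and 0.05 for GCM against LPS. For compact regions and their neighbours it was 0.17, 0.34 and 0.12. These are descriptions over regions of the same libraries. The neighbours of wide regions were narrow (median width 346.5 bp). The median absolute LPS change of all wide regions, 0.08, was below their median SE of 0.13. The part of such scatter in the low correlations was not tested. Of the 2094 neighbours 148 (7.07%) were called with LPS. Beside the 24 wide regions that rose with LPS and had such a neighbour, the neighbour's change was positive in 14, and beside the 27 that fell it was negative in 19.

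In the densest wide regions 1 library, untreated culture 2, stood above the others. At or above 30 CPM per kb, a limit chosen after the values were seen, there were 21 wide regions (0.709% of the set) and 390 compact regions. Of the 21, 8 were on chromosome 1, between positions 38143906 and 100137623, and 5 on chromosome 16, between 15008427 and 31193231. Their median levels were 82.5 and 96.4 CPM in untreated cultures, 76.0 and 73.6 CPM with LPS and 70.8 and 72.2 CPM with GCM. Untreated culture 2 was above untreated culture 1 in 20 of the 21, with a median log2 difference of -0.32 for culture 1 minus culture 2. The 390 compact regions leaned the same way, with a median difference of -0.11 and untreated culture 1 higher in 101. Their GCM pair differed as well, by a median of 0.24, with GCM culture 1 higher in 359, whereas in the 21 wide regions that median was -0.04.

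The region with the highest level was also the widest, chr20:42595129-42599801, with 152 and 194.5 CPM in untreated cultures, 129 and 143.5 CPM with LPS and 124 and 188 CPM with GCM. Its replicates differed by as much as its groups, and it was not called (LPS log2 change -0.34 ± 0.16, SE, edgeR adjusted p 0.18). The next in level, chr1:39402442-39404232 and chr1:38143906-38145831, had 107.5 and 151 CPM and 108 and 151 CPM in untreated cultures, and 99.0 to 113 CPM in every treated library. At chr1:56940966-56943475 the untreated cultures had 106 and 148 CPM and the 4 treated libraries 90.3 to 102 CPM. At chr20:42559822-42563318 they had 95.8 and 131 CPM, and the treated libraries 84.2 to 94.3 CPM. Untreated culture 2 was the highest library at each of these 4. By contrast, chr13:94597032-94601490 had 96.8 and 92.2 CPM in untreated cultures, 104.2 and 115.1 CPM with LPS and 104.2 and 95.1 CPM with GCM, and was not called.

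Over the 21 regions the median LPS log2 change was -0.27, with -0.47 when untreated culture 1 was left out and -0.08 when untreated culture 2 was. It stayed at -0.27 without either LPS culture. The regions called lower with LPS among them were chr1:55294282-55296005, chr1:56940966-56943475 and chr9:69850127-69852618 (log2 changes -0.39, -0.46 and -0.45, edgeR adjusted p 0.049, 0.032 and 0.018). These were 3 of the 21, where 1.15% of wide and 3.14% of all tested regions were lower. The calls moved with the fit. Among the 21 there were 0 with whole read totals, 0 when only regions present in all lists were fitted, 1 with DESeq2 and 13 with only the 4 libraries compared. The LPS change was below 0 in 20 of the 21 with all cultures and in 18 without untreated culture 2. The size of the median change thus depended on untreated culture 2. Without that culture the -0.08 stood against -0.04 over all wide regions in the same fit. The 21 were chosen by mean level over all 6 libraries, untreated culture 2 included. They also share libraries, so the number below 0 is a description only.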

How the data were processed

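DNase I libraries of 6 cultures were compared, 2 per group. The genome build was rn5 and, in no stated order, the tools were edgeR, DiffBind, Picard 1.95, SAMtools, Bowtie 1.1.2 and cutadapt 1.8.3, per the submitters' processing notes. The authors deposited raw counts of tags per region, which were used for all tests and levels. The authors' deposited comparison tables hold, per the file headers, log2 fold changes, likelihood ratio scores, p-values and CPM of whole library totals; they were used only for those totals. The deposited hotspot lists were called per library and carry a score of undefined meaning.

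Counts were fitted in edgeR 4.0.16 (R 4.3.3) by a quasi-likelihood model of group means over all 6 libraries, with TMM scaling, over the 126284 regions that passed edgeR's default filter at a minimum count of 10. Two-sided p-values were adjusted over all tested regions by Benjamini-Hochberg. CPM were computed from counts in regions and TMM totals. The SE came from the log2 change and its F statistic (change over the root of F). The fit was tested on simulated data. Alternatives were DESeq2 1.42.0 and its size factors, other totals, filters, widths and cover, a replicate block and leaving out each culture. Intervals were handled in Python 3.11.15.

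Named regions were, among wide ones, the 6 highest in CPM, the 5 widest, the 6 smallest p-values in each direction of each comparison among called regions with non-overlapping libraries, the 5 least changed, the 3 closest pairs, and the 3 on either side of the width limit. The members and lists were chosen with earlier results of these data known. Gene lists were not used, since no region is tied to a gene. Replicates are separate cultures of pooled pups.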

Additional observations from a re-analysis of the deposited data

Results flagged for a closer look

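The changes with LPS and with GCM differed from each other, by the test of GCM against LPS, at 24 wide regions that were higher with GCM and 28 that were lower (edgeR's quasi-likelihood test, adjusted p under 0.05, 2 cultures per group).

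The regions with the smallest p-values that were higher with GCM than with LPS were chr9:45309530-45311085 (log2 difference 0.71), chr5:162575573-162577164 (0.66), chr6:135218126-135219645 (0.63), chr9:53462019-53463578 (0.62), chr10:70516180-70517715 (0.58) and chr19:58944032-58945589 (0.57). Those that were lower were chr7:119658626-119660145 (log2 difference -0.84), chr7:76150553-76152360 (-0.78), chr3:78523082-78524847 (-0.75), chr1:261815559-261817143 (-0.72), chr14:5327458-5329321 (-0.71) and chr5:163927953-163929670 (-0.70). With libraries scaled to whole read totals, none of these 12 was called.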

How the results depend on the processing

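For LPS, GCM and GCM against LPS, the 66, 12 and 52 calls among wide regions became 3, 0 and 0 with whole read totals and 10, 0 and 12 with DESeq2. With a width limit of 1200 bp they were 203, 35 and 171, with 2000 bp 12, 2 and 6, and with at least 50% of the width covered in each list 41, 6 and 28. Fitting only the 4 libraries compared gave 149 for LPS and 30 for GCM against LPS, and the likelihood ratio test gave 21 for GCM. Leaving out 1 culture at a time gave 10 to 153, 0 to 29 and 13 to 78. The cause of these shifts was not tested. DESeq2 size factors, totals in regions and both filter settings kept each count within 1.5 times.

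With a replicate block the counts were 62, 13 and 52. Cultures of the same number did not deviate together throughout (correlations of 0.05, 0.11 and -0.001 across all regions and -0.03, 0.26 and -0.08 over wide regions, for untreated with LPS, untreated with GCM and LPS with GCM), so the numbers were not taken to pair them.

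The called share of wide regions was below that of all tested regions in 17 of 17 fits for LPS, in 16 of 17 for GCM (without GCM culture 2 it was 0.068% against 0.026%) and in 17 of 17 for GCM against LPS. Where few regions were called at all (for GCM, 3 of all tested regions with DESeq2 and 12 without untreated culture 1), a count of 0 among wide regions says nothing about their share. Against compact regions it was lower in 16, 13 and 15 of the 17. No region named for a comparison reversed its direction in that comparison. The direction of the other named regions was not followed across fits. With 2 cultures per group, the main fit called no wide region with a log2 change under about 0.38 in size. The median SE was 0.13, and a wide region without a call may still have changed.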
